A study of Arabidopsis thaliana with 40 samples.

Results

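The genes described here are those with higher transcript levels in untreated leaves of both Arabidopsis genotypes that carry the rpoTmp mutation. Of 22746 probe sets, each a set of array probes that reads 1 gene or a few, 192 were at least 1 log2 unit above their own wild type in the rpoTmp single mutant and 826 in the aox1a:rpoTmp double mutant, with a mutant mean of at least 5. Together 69 met both conditions. Of these, 8 were set aside by name: AT5G09570, AT2G21640, NDB2, cox2, ccb452, nad9 and 2 probe sets of nad1. The remaining 61 are the members. A single gene is listed for 26 of them, several genes for 4 and none for 31.

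Leaves of Arabidopsis thaliana were profiled on 40 Affymetrix arrays in 16 groups, after 4 d either without water under about 350 µE of light (moderate light and drought, MLD) or in standard growth under 100 µE (untreated). Plants grew at 22 °C with 16 h of light. Each mutant has its own wild-type (Col0) arrays, 3 per treatment. The rpoTmp and aox1a mutants each have 2 lines with 2 arrays per line and treatment, and the double mutant has 3 arrays per treatment. The insertions behind the lines, and the lines from which the double mutant was made, are not stated in the labels. Ages differ between labels. The characteristics give 5 weeks for rpoTmp and 4 weeks for its wild type. Plants of the double set are 5 weeks old there when untreated and 4 weeks old under MLD. By the source names every group was 4 weeks old, and the treatment protocol gives 5 weeks for rpoTmp and 6 to 7 weeks for the double mutant against 4 weeks for wild type and aox1a. Age and genotype therefore cannot be told apart where these differ. In the double set the age in the characteristics cannot be told apart from the treatment either. The labels do not say whether replicates are separate plants or pools, so the p-values measure the spread between these arrays. In the fits each line and treatment had its own mean. The standard errors (SE) and p-values therefore hold the spread between arrays of a group and not the spread between the 2 lines.

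RPOTMP is a phage-type RNA polymerase that transcribes genes in the organelles, and AOX1A is the leaf alternative oxidase, which lets mitochondrial electrons bypass the cytochrome pathway. When mitochondria are disturbed, plant cells raise a set of nuclear stress genes through retrograde signalling, in which membrane-bound NAC transcription factors are released to the nucleus. Mitochondrial genomes of plants also carry genes for ribosomal proteins and subunits of the ATP synthase. In Col0 a large copy of mitochondrial DNA lies in nuclear chromosome 2, so that a transcript of either origin can be read by a shared probe set. Drought acts through abscisic acid on a further set of genes, among them the linker histone gene HIS1-3.

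Array medians ranged from 23.51 to 27.16 on the linear intensity scale. The lower quartile of an array lay between 2.47 and 2.61 on the log2 scale, the level near which a low transcript can no longer be followed. RPOTMP itself sat near this floor, with group means from 2.48 to 3.40 in the rpoTmp and double sets, so its probe set does not check the labels, and AOX1A was not analysed here. The leaf mesophyll marker RCA, the rubisco activase gene, was at 14.01 to 14.54 in all groups. Of the markers of other cell types, FAMA (guard cells) lay between 5.50 and 6.55. AUR1 (dividing cells) lay between 2.04 and 2.64 in 15 groups and at 4.29 ± 0.16 (SD, n = 3) in untreated wild type of the double set. The markers listed for floral organs and phloem were not analysed here. For GAPDH, the log2 ratio of 3′ over 5′ control signal, which reports on RNA integrity and labelling, averaged 3.60 in untreated wild type of the double set against 3.21 in the untreated double mutant. Under MLD these means were 4.02 and 3.33. Another GAPDH control pair overlapped between the same groups. Its ratios were 0.33 to 0.42 in untreated wild type and 0.39 to 0.42 in the untreated double mutant. Under MLD they were 0.395 to 0.65 and 0.30 to 0.61. In the rpoTmp set this pair read -0.29 to -0.07 in untreated wild type, 0.09 to 0.11 in line 1 and -0.47 to -0.22 in line 2. Under MLD it read -0.22 to 0.18 in wild type, 0.18 to 0.41 in line 1 and 0.15 to 0.41 in line 2. The part of the GAPDH differences in the results of either set was not tested. In leaf RNA, fewer cells of a type and less RNA per cell cannot be told apart.

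The members were chosen by these untreated values, which are given as a description. The median rise was 1.28 in rpoTmp (range 1.00 to 3.53) and 2.25 in the double mutant (range 1.02 to 6.53). The rise was larger in the double mutant for 52 members and larger in rpoTmp for 9. Both rpoTmp lines lay above wild type for all 61 members, but not equally. Line 1 was at least 1 above wild type for 59 members and line 2 for 34, with median rises of 1.63 and 1.07. The wild-type mean was below 5 for 23 members in the rpoTmp set and for 29 in the double set, where the size of a rise is not exact. The members just inside the limit were AT5G58570 (smaller rise 1.00) and AT5G18130 (1.02), with 3 probe sets without a listed gene at 1.01 to 1.02. Just outside were AT3G03270 (0.98), AT3G16800 (0.98), AT1G76960 (0.98), AT1G13470 (0.97) and AT2G43540 (0.97) among probe sets with a single gene.

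**Figure D1:**
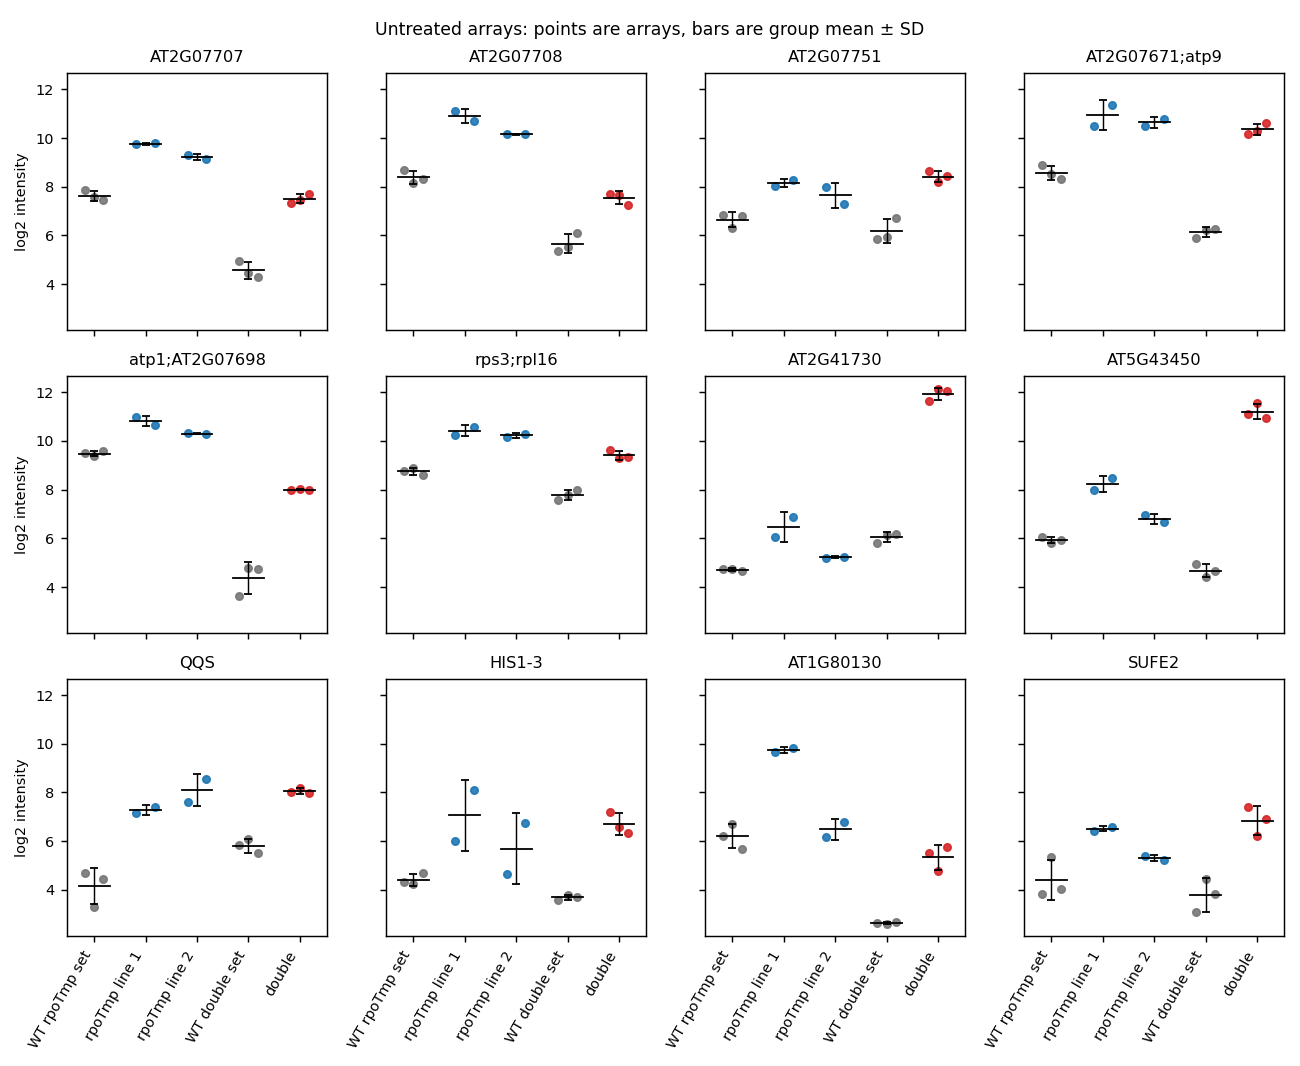
Log2 intensity of 12 members on the untreated arrays of the rpoTmp and double sets. Points are arrays and bars are group means ± SD (n = 3 for wild type and double mutant, n = 2 per rpoTmp line). The double mutant stands far above its wild type for AT2G41730 and AT5G43450, the rpoTmp lines separate for AT1G80130 but overlap for HIS1-3, and the wild type of the double set is low for atp1 and AT2G07707.

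The arrays under MLD were not used to choose the members. The question there is whether each genotype still differs from its wild type. Changes were tested with limma over all probe sets of a set, and a probe set was called at a Benjamini-Hochberg adjusted p under 0.05. In rpoTmp, 38 members were called higher and 3 lower. Of all probe sets 30.0% passed in this comparison, 15.7% upward and 14.3% downward, against 62.3% and 4.92% of the members. The rule leaves out dim probe sets, which are part of the shares of all probe sets here and below. With only the 12061 probe sets at a mean of at least 5 in a group, 6715 were called, 3493 higher and 3222 lower. Of the members 42 were then called higher and 2 lower. The members' median change was 1.72, and that of all probe sets was 0.00. In the double mutant, 28 members were called higher and 10 lower, where the share called among all probe sets was 35.9%, of which 18.8% higher and 17.1% lower. With the same limit on level, 7591 of 12156 probe sets were called there, 3989 higher and 3602 lower. Of the members 30 were then called higher and 15 lower. The members' median change was 0.50.

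The effects of both genotypes under MLD were compared with each other in a fit of all 40 arrays, each against its own wild type. Genotype and set cannot be told apart in this comparison. Effects were compared with their sign, so a lower effect can be a fall of greater size. The signed effect was lower in the double mutant than in rpoTmp for 27 members and higher for 7. In this comparison 41.9% of all probe sets were called, 20.5% with a higher and 21.4% with a lower signed effect in the double mutant. The members' median difference was -0.93. Under MLD, 16 members were called higher in both genotypes, which is 16 of the 38 higher in rpoTmp, 16 of the 28 higher in the double mutant and 26.2% of the members, against 1.52% of all probe sets. A further 8 were called higher in rpoTmp and lower in the double mutant, or 13.1% against 6.83% of all probe sets. Of the probe sets called higher in rpoTmp, these are 8 of 38 members against 1553 of 3578 on the whole array. Such opposite calls were thus not particular to the members. Another 14 were called higher in rpoTmp and in neither direction in the double mutant (7.39% of all probe sets), and 10 were called higher in the double mutant that were not called in rpoTmp (9.51% of all probe sets). Opposite to these, 2 probe sets with no listed gene, singled out after their values were seen, were called lower in rpoTmp and higher in the double mutant (7.79% of all probe sets). Of the others, 9 were called in neither genotype, where 51.8% of all probe sets were. These counts are a description, since the members were chosen for a rise in both genotypes. The shares of all probe sets beside them include dim probe sets, which are seldom called. Across the 61 members the effects in rpoTmp and in the double mutant had a Pearson correlation of -0.24, and across all probe sets of -0.35. Neither effect shares arrays with the other, but probe sets are not independent.

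**Figure D2:**
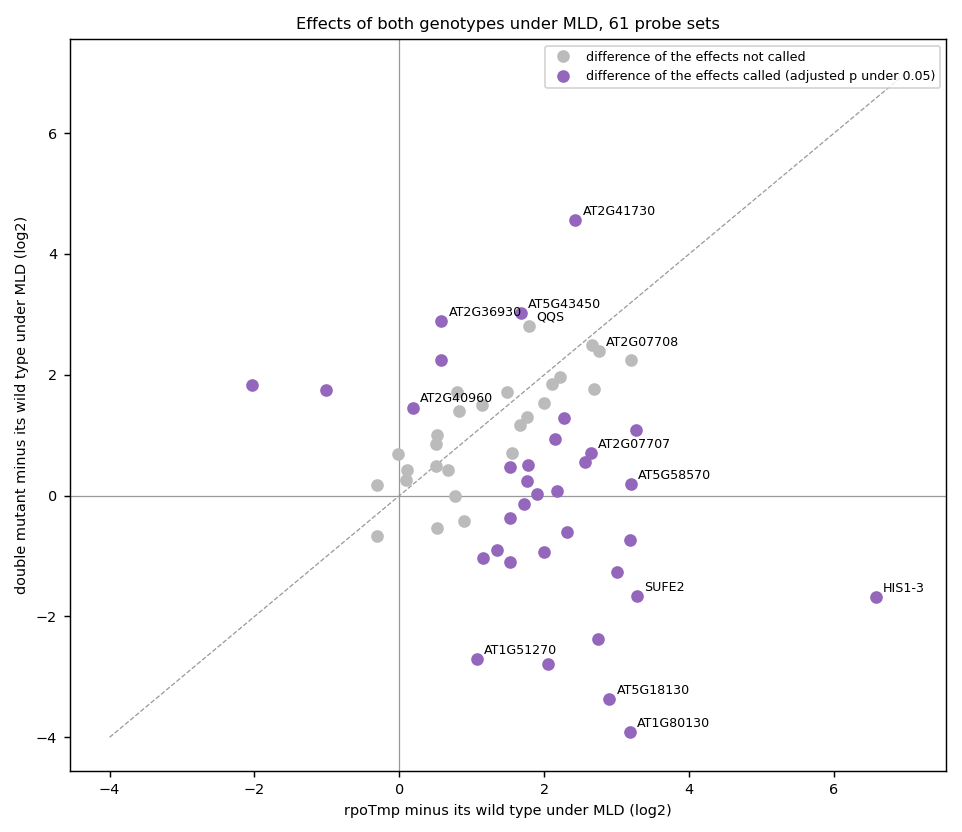
Log2 difference between mutant and wild type under MLD for the 61 members, rpoTmp on the horizontal axis and the double mutant on the vertical axis. Purple points are members whose 2 effects differ at an adjusted p under 0.05, and the dashed line marks equal effects. HIS1-3, AT1G80130 and AT5G18130 lie at the lower right, AT2G41730 at the top, and QQS and AT2G07708 near the dashed line.

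Of the members with a listed gene, 6 probe sets read genes of mitochondrial type: AT2G07707 (ATP synthase subunit 8), AT2G07751 (a chain of NADH dehydrogenase), AT2G07671 with atp9 (the ring subunit of the ATP synthase), AT2G07698 with atp1 (its alpha subunit), rps3 with rpl16 (ribosomal proteins) and AT2G07708, which lies beside AT2G07707. Whether any of the 31 members with no listed gene also does was not tested. Under MLD all 6 were called higher in rpoTmp, by 1.99 to 3.27, and all 6 in the double mutant, by 0.70 to 2.39. Of all probe sets, 15.7% and 18.8% were called higher there. The rule chose these 6 for an untreated rise in both genotypes, so the counts are a description. Reads of the mitochondrial genes and of their chromosome 2 copies cannot be told apart where a probe set matches both. Whether the array method reports organellar transcripts as it does nuclear ones was not tested.

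The atp1 probe set read 9.50, 9.37 and 9.57 in untreated wild type of the rpoTmp set. It read 10.97 and 10.66 in rpoTmp line 1 and 10.31 and 10.28 in line 2. All 4 mutant arrays lay above the wild type. Under MLD the wild type read 9.42, 8.97 and 8.85, and the rpoTmp arrays read 11.03, 11.38, 11.32 and 11.20. The groups did not overlap, with a difference of 2.15 ± 0.14 (SE, limma adjusted p = 1.31e-05).

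In the double set the atp1 wild type was far lower without treatment, at 3.61, 4.77 and 4.72 against 7.99, 8.02 and 7.99 in the double mutant. Under MLD the wild type read 7.33, 7.27 and 7.68 and the double mutant 8.35, 8.44 and 8.32. The double mutant lay at about the same level in both treatments, while its wild type was 3.06 higher under MLD than untreated. The rule favours a low untreated wild type, so this is a description. The difference under MLD was 0.94 ± 0.26 (SE, limma adjusted p = 0.0187). The sources used here do not say whether the 3 sets were processed on the arrays as one, so levels are compared within a set.

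AT2G07707 showed the same order. In rpoTmp it read 10.19, 10.24, 9.99 and 10.46 under MLD against 7.87, 7.48 and 7.39 in wild type, a difference of 2.64 ± 0.15 (SE, limma adjusted p = 6.93e-06). The double mutant read 7.59, 7.79 and 7.49 against 7.09, 6.58 and 7.10, and the groups were apart by 0.70 ± 0.19 (SE, limma adjusted p = 0.0183). Untreated wild type of the double set was lowest, at 4.94, 4.46 and 4.30. Of the 6 probe sets, 4 were called with a smaller effect in the double mutant than in rpoTmp under MLD (21.4% of all probe sets). AT2G07708 was not among them. It read 7.56, 7.52 and 7.73 in the double mutant under MLD and 5.24, 5.53 and 4.86 in its wild type, a difference of 2.39 ± 0.22 (SE, limma adjusted p = 3.54e-05) against 2.75 ± 0.20 in rpoTmp.

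The probe set of AT2G07671 and atp9 had the largest effect of the 6 in rpoTmp under MLD, at 11.78, 11.98, 11.54 and 12.32 against 9.03, 8.75 and 8.14 in wild type, a difference of 3.27 ± 0.29 (SE, limma adjusted p = 4.71e-05). In the double set under MLD it read 10.21, 10.29 and 10.35 against 9.17, 8.84 and 9.59, a difference of 1.08 ± 0.19 (SE, limma adjusted p = 0.0014). The groups did not overlap in either set, and the effect was smaller in the double mutant by -2.19 ± 0.34 (SE). AT2G07751 was higher by 2.27 ± 0.22 in rpoTmp and by 1.28 ± 0.25 (SE) in the double mutant. The probe set of rps3 and rpl16, genes of the mitochondrial ribosome, was higher by 1.99 ± 0.23 and 1.53 ± 0.14 (SE), and its effects differed by -0.46 ± 0.34 (SE, limma adjusted p = 0.305).

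Both nuclear genes of the mitochondrial stress response among the members, AT2G41730 and AT5G43450, had larger effects in the double mutant. AT2G41730 (HRG1) is a small hypoxia-responsive gene induced by inhibitors of respiration. Untreated, it read 4.73, 4.76 and 4.67 in wild type of the rpoTmp set, 6.04 and 6.89 in line 1 and 5.21 and 5.25 in line 2. In the double set it read 5.82, 6.14 and 6.20 in wild type and 11.64, 12.11 and 12.03 in the double mutant. The double mutant arrays were far above their wild type, and line 2 was closer to its wild type than line 1.

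Under MLD AT2G41730 read 11.01, 10.68 and 10.24 in the double mutant against 5.98, 6.37 and 5.90 in its wild type. The groups were far apart, with a difference of 4.56 ± 0.22 (SE, limma adjusted p = 1.73e-06). In rpoTmp it read 6.94, 5.03, 6.71 and 7.22 against 3.85, 3.54 and 4.75 in wild type. These groups did not overlap either, with a difference of 2.43 ± 0.44 (SE, limma adjusted p = 0.00249). The effect in the double mutant exceeded that in rpoTmp by 2.13 ± 0.46 (SE, limma adjusted p = 0.000365). The probe set is of a design that can also bind related transcripts.

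AT5G43450, which encodes an enzyme of the 2-oxoglutarate-dependent dioxygenase family, had the largest untreated rise of all members in the double mutant. It read 4.94, 4.41 and 4.67 in wild type and 11.10, 11.54 and 10.96 in the double mutant. Under MLD it read 9.66, 10.15 and 9.73 in the double mutant against 6.90, 6.37 and 7.21, a difference of 3.02 ± 0.25 (SE, limma adjusted p = 1.82e-05). All double mutant arrays lay well above the wild type. In rpoTmp under MLD the difference was 1.68 ± 0.16 (SE, limma adjusted p = 6.72e-05), and the effects differed by 1.34 ± 0.29 (SE, limma adjusted p = 0.00039).

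The list of the mitochondrial stress response holds 24 entries, 12 of them measured. Here and below, measured means that a probe set lists that gene alone. Other entries may still be on the array, where 8730 probe sets have no listed gene. Beside these 2 members, 5 of the other 10 were called higher and none lower in rpoTmp under MLD, with a median of 1.29. For the double mutant 6 were called higher and 1 lower, with a median of 3.22. Of these 10, AT2G21640, AT5G09570 and NDB2 had also met the untreated rule and were set aside by name. Each was called higher in rpoTmp, and AT2G21640 and AT5G09570 also in the double mutant. The counts are therefore a description and not independent of the rule. For scale, the upward and downward shares across the array were 15.7% and 14.3% in rpoTmp and 18.8% and 17.1% in the double mutant. AT5G09570 (AT12CYS-2), which was set aside by name, and AT2G04070, a MATE-type transporter gene, were the highest in rpoTmp, by 5.25 ± 0.84 and 2.28 ± 0.14 (SE). AT2G04050, also a MATE-type gene, and HSP23.5, a small heat shock gene, were the highest in the double mutant, by 6.43 ± 0.22 and 6.18 ± 0.27 (SE). NDB2, an external alternative NADH dehydrogenase, was called lower there by -1.19 ± 0.22 (SE).

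QQS, a gene with no relatives outside Arabidopsis that affects the balance of starch and protein, had the largest smaller rise of the single-gene members. Untreated it read 4.71, 3.32 and 4.43 in wild type of the rpoTmp set, 7.14 and 7.41 in line 1 and 7.62 and 8.55 in line 2. In the double set it read 5.84, 6.09 and 5.51 in wild type and 8.03, 8.19 and 7.96 in the double mutant. It was high in every mutant array of both sets, line 2 included.

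Under MLD QQS read 9.28, 9.13 and 9.45 in the double mutant against 5.90, 6.51 and 7.01 in wild type, a difference of 2.81 ± 0.25 (SE, limma adjusted p = 2.82e-05). In rpoTmp it read 8.35, 8.59, 7.39 and 8.53 against 6.77, 5.99 and 6.51, a difference of 1.79 ± 0.40 (SE, limma adjusted p = 0.00743). The groups did not overlap in either set. The difference between both effects, 1.02 ± 0.61 (SE), had a limma adjusted p of 0.198. The list of senescence and sugar starvation genes, which holds QQS, has 3 of 15 entries measured. Of the other 2, SAG29, a sugar transporter gene of senescence, was called higher in rpoTmp under MLD (1.56 ± 0.29, SE), and the alpha-amylase gene AMY1 was called lower in the double mutant (-1.49 ± 0.25, SE).

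A group of members went opposite ways in both genotypes under MLD. HIS1-3, the drought- and abscisic acid-induced linker histone, read 11.27, 11.73, 10.91 and 10.95 in rpoTmp under MLD against 5.89, 4.36 and 3.67 in wild type. The groups were widely apart, with a difference of 6.58 ± 0.67 (SE, limma adjusted p = 9.51e-05), the largest among the members. In the double mutant it read 4.45, 5.93 and 6.21 against 7.32, 6.39 and 7.91 in wild type. All double mutant arrays lay below the wild type, by -1.68 ± 0.49 (SE, limma adjusted p = 0.0229). This call was lost without wild-type replicate 1 (-1.62), without wild-type replicate 3 (-1.33) or without double mutant replicate 1 (-1.14). The effects differed by -8.25 ± 0.88 (SE, limma adjusted p = 3.13e-08). Untreated, both mutants had been the higher ones, as the rule requires. HIS1-3 read 4.32, 4.24 and 4.69 in wild type of the rpoTmp set, 6.02 and 8.09 in line 1, and 4.65 and 6.73 in line 2, whose lower array lay within the wild-type range. In the untreated double set it read 3.60, 3.80 and 3.69 in wild type and 7.20, 6.59 and 6.34 in the double mutant.

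AT1G80130, a tetratricopeptide repeat protein gene, read 8.99, 8.56 and 10.37 under MLD in wild type of the double set and 4.04, 6.16 and 5.98 in the double mutant. The groups did not overlap, with a difference of -3.92 ± 0.60 (SE, limma adjusted p = 0.000657). In rpoTmp it read 11.15, 12.50, 12.22 and 11.25 against 8.87, 8.93 and 8.01, a difference of 3.18 ± 0.40 (SE, limma adjusted p = 0.000335). The order of mutant and wild type thus turned between the sets. Without treatment it had read 2.62, 2.59 and 2.68 in wild type of the double set, near the floor, and 5.50, 4.78 and 5.74 in the double mutant. The untreated rise in rpoTmp came from line 1, at 9.66 and 9.83, while line 2 at 6.18 and 6.80 overlapped the wild type at 6.21, 6.69 and 5.70.

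AT5G18130 had the same order as AT1G80130. In rpoTmp under MLD it read 10.52, 10.84, 10.78 and 10.29 against 8.45, 8.08 and 6.60 in wild type, a difference of 2.90 ± 0.42 (SE, limma adjusted p = 0.000667). The double mutant read 5.24, 5.72 and 5.50 against 8.70, 8.63 and 9.24, a difference of -3.37 ± 0.37 (SE, limma adjusted p = 9.49e-05). Mutant and wild type were apart in both sets, in opposite order. Its untreated rise was close to the limit of the rule.

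SUFE2, a plastid protein that activates the sulfur donor for iron-sulfur clusters, read 10.36, 8.54, 8.92 and 9.46 in rpoTmp under MLD against 6.99, 5.81 and 5.32 in wild type. The difference was 3.28 ± 0.54 (SE, limma adjusted p = 0.0014). Its double mutant values were 4.93, 7.48 and 5.15 against 8.07, 7.38 and 7.12. Replicate 2 of the double mutant lay within the wild-type range, and the difference of -1.67 ± 0.66 (SE) had a limma adjusted p of 0.0811. The effects in both genotypes differed by -4.95 ± 0.88 (SE, limma adjusted p = 4.05e-05).

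AT2G29670, another tetratricopeptide repeat protein gene, was called higher in rpoTmp under MLD by 1.99 ± 0.16 (SE) and lower in the double mutant by -0.93 ± 0.13 (SE). AT1G51270 read 7.42, 7.00 and 7.20 in wild type of the double set under MLD and 5.08, 3.79 and 4.64 in the double mutant, a difference of -2.70 ± 0.32 (SE, limma adjusted p = 0.000137). The groups were clearly apart, and in rpoTmp its difference of 1.07 ± 0.38 (SE) was not called (limma adjusted p = 0.0623). AT2G41410, a calmodulin-like calcium sensor, was called higher in rpoTmp under MLD by 2.32 ± 0.36 (SE) and read -0.61 ± 0.22 (SE) in the double mutant, which was not called. AT2G01540, a C2-domain protein gene, read 1.52 ± 0.26 (SE, called) and -0.37 ± 0.15 (SE, not called) in the same comparisons. AT5G58570 was called higher in rpoTmp by 3.20 ± 0.86 (SE), a call that was lost without line 1 replicate 1 (3.03) or without wild-type replicate 1 (2.93), and its difference in the double mutant was 0.19 ± 0.50 (SE).

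**Figure D3:**
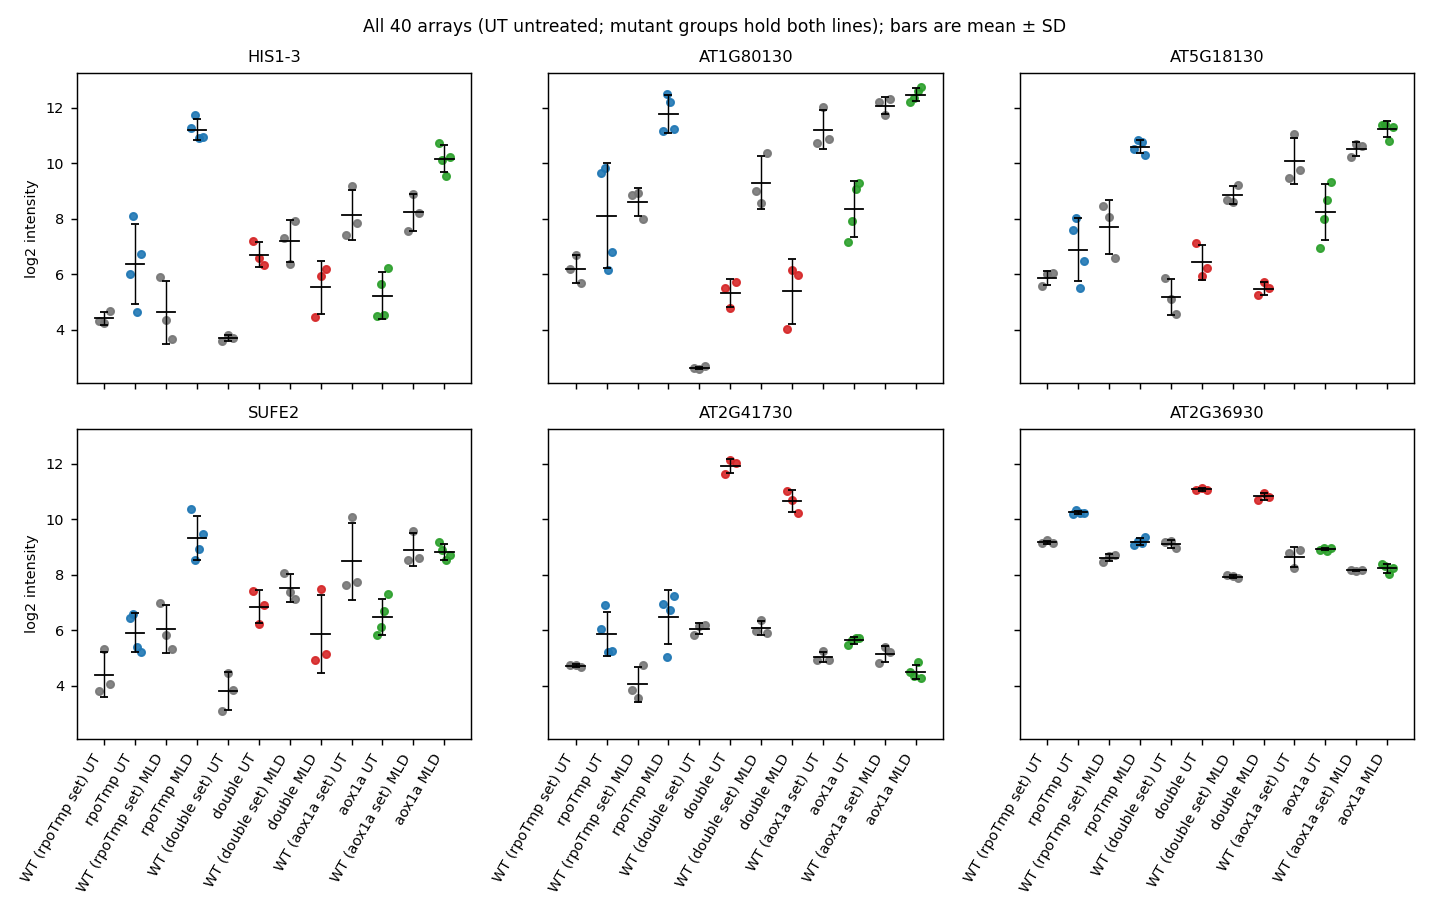
Log2 intensity of 6 members on all 40 arrays, with mutant groups holding both lines and bars giving mean ± SD. Under MLD HIS1-3, AT1G80130 and AT5G18130 lie above their own wild type in rpoTmp and below it in the double mutant, and AT2G41730 and AT2G36930 lie above their own wild type in the double mutant in both treatments.

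The drought and abscisic acid list, which holds HIS1-3, has 4 of 19 entries measured. Of the other 3, the dehydrin gene COR47 was called higher in rpoTmp under MLD (1.43 ± 0.30, SE) and COR15A lower (-2.04 ± 0.60, SE), and the difference of LTI30 was 0.13 ± 0.62 (SE). In the double mutant COR47 and LTI30 were called lower, by -3.22 ± 0.39 and -3.2 ± 0.61 (SE).

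AT2G36930, a zinc finger protein gene, read 10.70, 10.95 and 10.79 in the double mutant under MLD against 7.99, 7.93 and 7.86 in wild type, a difference of 2.89 ± 0.08 (SE, limma adjusted p = 2.09e-07). In rpoTmp it read 9.06, 9.21, 9.12 and 9.34 against 8.46, 8.66 and 8.69, a difference of 0.58 ± 0.08 (SE, limma adjusted p = 0.000533). Mutant arrays lay above wild type in both sets, and the effect was larger in the double mutant by 2.31 ± 0.15 (SE, limma adjusted p = 2.45e-11). In the double mutant AT2G40960 was also higher, at 7.13, 7.53 and 7.55 under MLD against 5.94, 5.86 and 6.05, a difference of 1.45 ± 0.23 (SE, limma adjusted p = 0.000716). In rpoTmp under MLD its arrays at 6.36, 6.54, 6.28 and 7.04 overlapped the wild type at 6.57, 6.27 and 6.27, and the difference was 0.18 ± 0.16 (SE).

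RING1, a membrane-bound ubiquitin ligase that promotes cell death, was not called in either genotype under MLD. Untreated, it read 5.73, 7.27 and 5.99 in untreated wild type of the double set and 9.88, 9.87 and 10.50 in the double mutant. Under MLD the wild type read 9.67, 9.53 and 9.49 and the double mutant 9.28, 9.75 and 9.61. The groups were far apart untreated, where the rule requires a rise. They overlapped under MLD, where the difference was -0.01 ± 0.36 (SE, limma adjusted p = 0.985). In rpoTmp under MLD it was 0.77 ± 0.44 (SE) and not called. CHI (AT2G43570), a chitinase-type gene, was not called in either genotype, with 1.49 ± 0.77 in rpoTmp and 1.72 ± 0.73 (SE) in the double mutant. AT4G18250 was called higher in rpoTmp by 1.76 ± 0.28 (SE) and not in the double mutant (0.24 ± 0.38, SE).

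Of the remaining single-gene members, AT1G30160 and AT2G18600 were called higher in rpoTmp under MLD, by 1.77 ± 0.22 and 1.91 ± 0.31 (SE), and neither in the double mutant, where the differences were 0.50 ± 0.22 and 0.03 ± 0.20 (SE). AT2G35820 and AT2G38180 were called higher in the double mutant, by 1.00 ± 0.14 and 1.5 ± 0.44 (SE), with 0.51 ± 0.24 and 1.14 ± 0.39 (SE) in rpoTmp, not called. AT2G15042 was called higher in both, by 1.55 ± 0.40 and 0.70 ± 0.24 (SE), as was the probe set shared by AT5G05060 and AT5G05040, by 0.82 ± 0.25 and 1.40 ± 0.25 (SE). AT5G35480 was called in neither, with -0.31 ± 0.26 and 0.18 ± 0.30 (SE). The 31 members with no listed gene were called higher in 15 and lower in 3 cases in rpoTmp under MLD, and higher in 13 and lower in 5 in the double mutant, with changes from -2.03 to 3.20 and from -2.79 to 2.50.

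The responses to MLD in the rpoTmp and double sets use the untreated arrays of the rule, which favours a low untreated wild type and a high untreated mutant. They are a description, and the shares of all probe sets are given for scale only. In the double set the age in the characteristics also differs between the treatments. From untreated to MLD, wild type of the double set rose by a median of 1.26 over the members, with 36 of 61 at least 1 higher (11.3% of all probe sets). The double mutant changed by a median of -0.36, with 17 members at least 1 lower (3.86% of all probe sets) and 4 at least 1 higher (4.77%). For HIS1-3 the wild-type change was 3.51 and that of the double mutant -1.18. For AT1G80130 these were 6.67 and 0.05. In the rpoTmp set the median change was 0.465 in wild type, with 15 members at least 1 higher (1.92% of all probe sets). It was 0.63 in the mutant, with 22 at least 1 higher (7.93%) and 8 at least 1 lower (8.45%). HIS1-3 changed by 0.22 in that wild type and by 4.84 in rpoTmp.

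The aox1a set took no part in the choice of the members and tests whether they also differ when AOX1A alone is lost. In untreated aox1a 8 members were called lower and 0 higher by limma, where 6.85% of all probe sets passed, 3.28% upward and 3.57% downward. At an unadjusted p under 0.05 there were 20 lower and 6 higher. The median change was -0.45 over the members and 0.02 over all probe sets. All 8 were called higher in rpoTmp under MLD, which is 8 of the 38 called there, and 5 of the 8 were called lower in the double mutant under MLD, which is 5 of the 10. Of the 812 probe sets called lower in untreated aox1a, 62.9% were called higher in rpoTmp and 49.4% lower in the double mutant under MLD. With the replicate number as a block, since same-numbered arrays deviated together, 10 members were called lower and 2 higher.

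HIS1-3 read 7.44, 9.17 and 7.84 in untreated wild type of the aox1a set, 4.50 and 5.67 in aox1a line 1, and 4.55 and 6.23 in line 2. All mutant arrays were lower, by -2.91 ± 0.58 (SE, limma adjusted p = 0.0342). AT1G80130 read 10.73, 12.03 and 10.88 in wild type, 7.15 and 7.92 in line 1, and 9.09 and 9.28 in line 2. It was lower by -2.85 ± 0.32 (SE, limma adjusted p = 0.00906), and line 1 lay below line 2. AT5G18130 and AT2G29670 were called lower by -1.85 ± 0.40 and -0.94 ± 0.16 (SE).

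Wild-type replicate 2 of the untreated aox1a set was the highest of its group for HIS1-3 and AT1G80130, as it was for SUFE2 at 10.09 against 7.64 and 7.72. Over all probe sets with a mean of at least 5, its median absolute log2 difference was 0.411 from replicate 1 and 0.372 from replicate 3. Replicates 1 and 3 differed by 0.155, and arrays within other groups by at most 0.296. When replicate 2 was left out, 2 members were called, AT1G80130 (-2.44 ± 0.22, SE, limma adjusted p = 0.00994) and AT2G29670 (-0.71 ± 0.09, SE, limma adjusted p = 0.0229). The 6 other calls were lost, with HIS1-3 at -2.40 and AT5G18130 at -1.37. The members' median was -0.22, and 41 of 61 were below 0 against 44 with all arrays. The count was 14 without wild-type replicate 1, 1 when wild-type replicate 3 was left out, 1 without line 1 replicate 1, 5 without line 1 replicate 2, and 1 without line 2 replicate 1. HIS1-3, AT5G18130 and AT2G29670 lost their calls also without wild-type replicate 3 (-3.07, -2.01 and -1.04), line 1 replicate 1 (-2.62, -1.58 and -0.84) or line 2 replicate 1 (-2.49, -1.68 and -0.94). AT1G80130 kept its call without each array in turn.

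**Figure D4:**
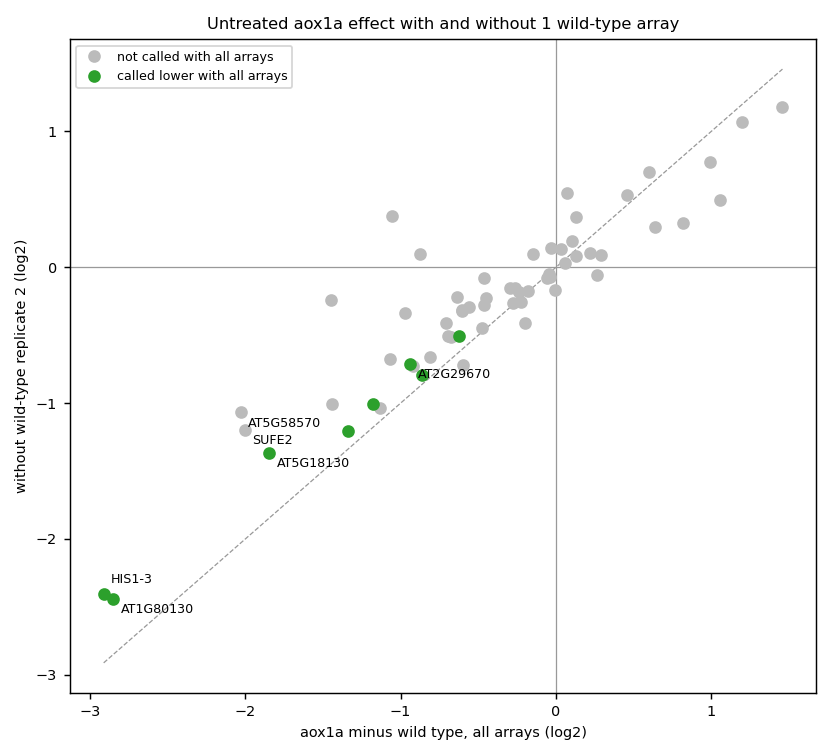
Log2 difference between untreated aox1a and wild type for the 61 members, with all arrays (horizontal axis) and without wild-type replicate 2 (vertical axis). Green points are the 8 members called lower with all arrays, and points above the dashed line read higher without that array. HIS1-3 moves from -2.91 to -2.40 and AT1G80130 from -2.85 to -2.44. AT5G58570 moves from -2.03 to -1.07 and SUFE2 from -2.0 to -1.20.

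Under MLD 6 members were called higher and 2 lower in aox1a, or 13.1% of the members where 12.4% of all probe sets passed, 6.26% upward and 6.14% downward. The share of members was thus near that of all probe sets. AT1G30160 read 6.21 and 6.30 in line 1, 4.85 and 4.76 in line 2 and 4.27, 4.58 and 4.57 in wild type. Line 1 stood well above line 2, and the difference was 1.06 ± 0.14 (SE, limma adjusted p = 0.00334) with both lines and 0.33, not called, with line 2 alone. AT5G35480 read 5.68 and 5.30 in line 1, 6.12 and 5.06 in line 2 and 7.57, 7.04 and 7.19 in wild type. All mutant arrays were lower, by -1.73 ± 0.41 (SE, limma adjusted p = 0.0273). AT2G18600 was called higher by 0.81 ± 0.21 and AT2G41730 lower by -0.64 ± 0.17 (SE). The count of calls was 4 without line 1 replicate 1, 4 without line 1 replicate 2, 5 without line 2 replicate 1, 3 without line 2 replicate 2, 2 without wild-type replicate 1 and 5 without wild-type replicate 3. The calls of AT5G35480, AT2G18600 and AT2G41730 were each lost without line 1 replicate 1 (-1.82, 0.89 and -0.68), without line 1 replicate 2 (-1.63, 0.72 and -0.60) and without wild-type replicate 2 (-1.84, 0.66 and -0.51). AT5G35480 and AT2G18600 lost theirs without wild-type replicate 1 (-1.58 and 0.79), AT5G35480 and AT2G41730 without line 2 replicate 2 (-1.46 and -0.50) and without wild-type replicate 3 (-1.76 and -0.61), and AT2G18600 without line 2 replicate 1 (0.65).

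For the response of aox1a-set wild type to MLD, limma called 0 members higher and 2 lower, or 3.28%, near the 3.35% of all probe sets that passed, 2.08% upward and 1.27% downward. At an unadjusted p under 0.05 there were 9 higher and 11 lower. AT2G15042 fell by 1.81 ± 0.41 on the log2 scale (SE, limma adjusted p = 0.0487), from 7.82, 7.82 and 7.24 to 5.18, 6.38 and 5.89. AT1G51270 fell by 1.08 ± 0.21 (SE, limma adjusted p = 0.0322). The arrays of both treatments did not overlap for either gene. The count was 15 without untreated replicate 2, 4 without MLD replicate 2, and 0 without untreated replicate 1, untreated replicate 3, MLD replicate 1 or MLD replicate 3, when 13, 14, 18 and 14 members had an unadjusted p under 0.05. In those 4 cases AT2G15042 read -1.72, -2.01, -1.5 and -1.85, and AT1G51270 read -1.15, -1.07, -0.87 and -1.06.

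In aox1a MLD moved more of them. The response was called higher for 31 members and lower for 10, where 52.0% of all probe sets passed, 24.8% upward and 27.2% downward. AT5G58570 went from 3.76, 3.58, 4.59 and 5.55 to at least 8.97 in all 4 arrays, a rise of 5.23 ± 0.65 (SE, limma adjusted p = 0.000256). HIS1-3 went from 4.50, 5.67, 4.55 and 6.23 to 10.75, 10.13, 9.56 and 10.22, a rise of 4.93 ± 0.53 (SE, limma adjusted p = 0.000134). The treatments did not overlap for either gene. AT1G80130 rose by 4.12 ± 0.29, AT2G41410 by 3.72 ± 0.41 and AT5G18130 by 2.99 ± 0.37 (SE).

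AT5G35480 went the other way in aox1a, from 8.89, 9.29, 9.13 and 8.90 to 5.68, 5.30, 6.12 and 5.06, a change of -3.51 ± 0.38 (SE, limma adjusted p = 0.000137). AT2G41730 fell by 1.13 ± 0.16 and AT2G36930 by 0.69 ± 0.13 (SE). AT2G15042 fell by 1.11 ± 0.35 (SE), which was not called without line 1 MLD replicate 1 (-0.98), line 1 untreated replicate 2 (-0.94), line 2 MLD replicate 1 (-0.79) or line 2 untreated replicate 1 (-1.0). The QQS change was -0.05 ± 0.48 (SE) and not called. Of the 6 probe sets of mitochondrial type, 3 were called higher (24.8% of all probe sets), with a range over all 6 from -0.10 to 0.75.

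**Figure D5:**
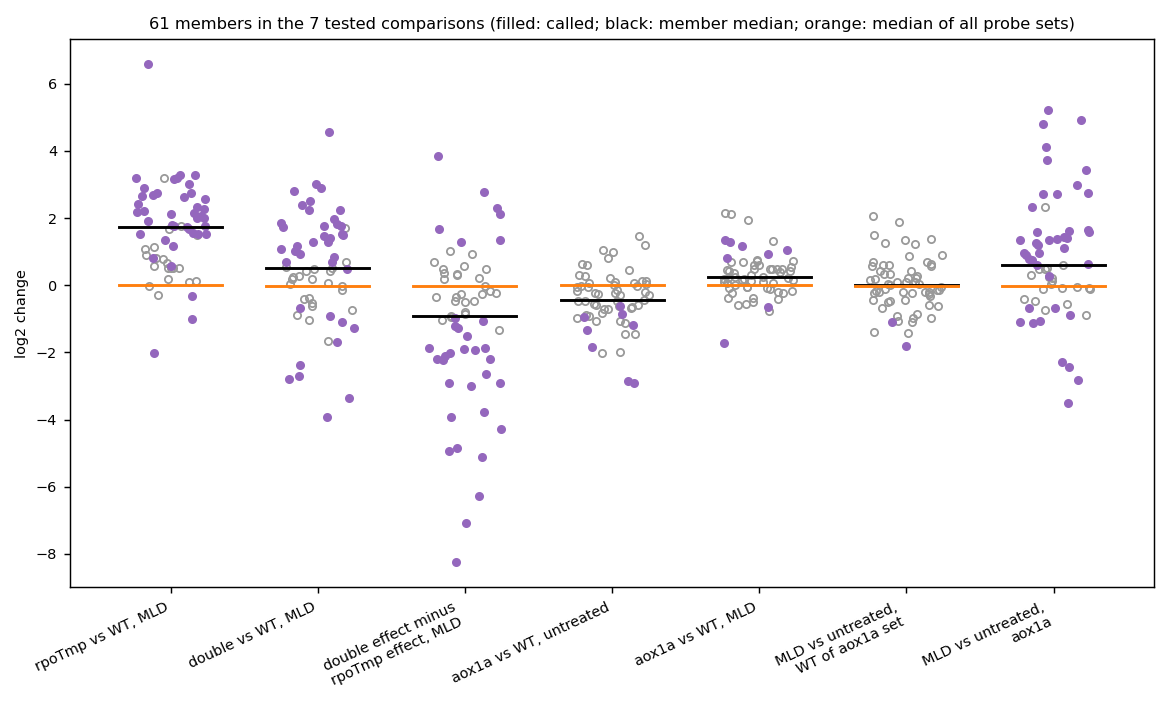
Log2 change of the 61 members in the 7 tested comparisons. Filled points are called at an adjusted p under 0.05, black lines are the members' medians and orange lines those of all probe sets. The members' median lies highest in rpoTmp under MLD (1.72) and lowest for the difference between the double and rpoTmp effects (-0.93).

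By position in the TAIR10.1 gene table, 15 of the 26 single-gene members (57.7%) were on chromosome 2, where 16.4% of the 13436 single-gene probe sets that match the table are. AT2G07707, AT2G07708 and AT2G07751, 3 of the 15, are loci of the nuclear copy of mitochondrial DNA. The others include HIS1-3, AT2G41730, AT2G36930, AT2G40960, AT2G29670, AT2G41410, AT2G01540 and CHI. Among single-gene probe sets raised by the same limits in rpoTmp, 28 of 89 (31.5%) were on chromosome 2, and among those raised in the double mutant 72 of 410 (17.56%). Of those raised in rpoTmp alone 20.0% were there, of those raised in the double mutant alone 14.7%, and of the 6 lowered in both 1 (16.7%). These shares are a description, since the rule chose the probe sets by their values.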

How the data were processed

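Per the labels, leaf RNA was hybridised to Affymetrix ATH1 arrays. The deposited intensity values, 1 per probe set and array on a linear scale, were already summarised and normalised by the authors. The submitters' processing notes name Affymetrix Expression Console, MAS5, Partek 6.5 and GCRMA, without their roles. From the deposited values log2 was taken with no offset. Of 22810 probe sets, 64 controls were left out. Genes were named from the platform's probe table and TAIR10.1. Each set (14, 12 and 14 arrays) was fitted with limma 3.58.1 in R 4.3.3, without filter or replicate block, p-values were adjusted over all 22746 probe sets by Benjamini-Hochberg, and the 7 comparisons that do not reuse the arrays of the rule were tested. The scripts were checked on simulated data. Scanner files were not used here.

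The members and the gene lists were chosen with earlier results of these data known. Of members with a single listed gene, those named have the 15 largest smaller-of-both untreated rises, lie at the limit of the rule, rank in the top 5 called changes of a comparison in either direction, or share a list or family symbol. The 5 non-members nearest the limit and up to 2 other genes of such a list each way were added. The 4 several-gene probe sets and other single-gene members were named after their values were seen. Replicate numbers were checked for pairing. In untreated aox1a against wild type same-numbered arrays deviated together (r 0.115 to 0.247), with wild-type arrays shared between the pairs. In other comparisons not every pair did. Alternatives were an offset of 16, quantile normalisation, a filter on dim probe sets, 1 fit of all 40 arrays, only the arrays contrasted, a replicate block, single lines, and each array left out.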

Additional observations from a re-analysis of the deposited data

Results flagged for a closer look

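In 3 of 104 groups of 4 arrays a single array stood apart, by a gap to the nearest other array beyond Dixon's critical share of the group's range, where chance gives about 5%. CHI in aox1a under MLD had a gap of 0.895 of the range, with line 1 replicate 2 at 8.68 and the others at 5.15 to 5.52. RING1 in untreated aox1a had a gap of 0.921, with line 2 replicate 2 at 8.13 and the others at 7.96 to 7.97, a small difference in level. AT2G40960 in aox1a under MLD had a gap of 0.920, with line 2 replicate 1 at 5.99 and the others at 5.86 to 5.87.

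The double mutant effect under MLD differed from the rpoTmp effect for 34 members, by the limma fit of all 40 arrays with adjusted p under 0.05. It was larger for AT2G36930 (2.31), AT2G41730 (2.13), AT5G43450 (1.34) and AT2G40960 (1.27). With its sign, it was lower for HIS1-3 (-8.25), AT1G80130 (-7.09), AT5G18130 (-6.26), SUFE2 (-4.95) and AT1G51270 (-3.77). On average these genes read below wild type in the double mutant and above it in rpoTmp, though not each of these differences was called. The genotypes also differ in labelled age. In the double set, mutant and wild type differ in the ratio of a GAPDH control pair, though not of another pair. Each effect was taken against the wild type of its own set, so genotype and set cannot be told apart. As a description, the members' median change of wild type from untreated to MLD was 0.465 in the rpoTmp set and 1.26 in the double set. The part of age, GAPDH ratio and set in the differences was not tested.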

How the results depend on the processing

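None of the 172 called values of the members, named or not, took the other sign in any of 2720 alternative values. Of 44 single-gene results, 30 kept their call under each alternative run, and 82 of 693 alternative values lost it, of which 0 of 180 concerned the difference between the double and rpoTmp effects. The number of members called in untreated aox1a was 8, and was 18 with the filter on dim probe sets, 17 in the 40-array fit, 0 by limma with only the arrays contrasted (19 at an unadjusted p under 0.05) and 0 with line 2 alone (17 unadjusted). In aox1a under MLD it was 8, and 2 with the replicate block, 4 with line 1 alone, 0 by limma with line 2 alone (9 unadjusted). For the wild-type response of the aox1a set it was 2, and 7 with the filter, 8 in the 40-array fit, 0 by limma with only the arrays contrasted (14 unadjusted) and 1 with the replicate block. The cause was not tested. With 1 array left out the counts ranged from 36 to 43 in rpoTmp under MLD, 31 to 37 in the double mutant, 1 to 14 in untreated aox1a, 2 to 6 in aox1a under MLD, 0 to 15 for the wild-type response, 34 to 39 for the aox1a response and 33 to 35 for the difference of effects. With the replicate block they were 38, 39, 12, 42 and 34 in rpoTmp under MLD, the double mutant, untreated aox1a, the aox1a response and the difference of effects. With only the arrays contrasted they were 38 in rpoTmp under MLD and 33 in the double mutant. Leaving out untreated wild-type replicate 2 of the aox1a set, chosen after seeing the data, gave 11 in aox1a under MLD and 43 for its response. Few arrays per group and values near the floor in wild type limit the precision.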
